A study of Homo sapiens with 3 samples.

Results

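The comparison described here set A375 cells kept in the secretome of young adipocytes (YA) against A375 cells kept in the secretome of old adipocytes (OA). A375 is an established human melanoma cell line. The adipocytes were differentiated from human subcutaneous preadipocytes of younger and older donors in a medium that contained insulin, dexamethasone, indomethacin and IBMX. They were then kept in a maintenance medium and washed, and the secretome is the serum-free DMEM that they conditioned. In the study's donor list all older donors were male and most younger donors female, and most also differed in source (bought or biobank) and body site. Which donors gave these secretomes is not given in the sources used here. Donor age and the donors' sex, source and body site can therefore not be told apart. A further library, from A375 cells in serum-free DMEM alone (control), was used to scale and filter the counts and to show from which side a difference came. Cells were exposed for 24 h by the series design, and the treatment protocol allows for a longer exposure. Each group had 1 library of poly(A) RNA. All 58037 genes of the table were considered, and the 14413 whose normalised count averaged 20 or more over the 3 libraries were compared, which held 99.7% of the counts.

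Adipocytes next to a tumour release fatty acids, lipoproteins, growth factors and inflammatory cytokines, and melanoma cells take up part of this material. Incoming lipid, amino acid supply, steroid hormones and cytokines are each read by a known transcription factor system. SREBP factors drive sterol synthesis when membrane sterol is low, ATF4 drives amino acid synthesis and import under stress, the glucocorticoid receptor drives its own target set, and NF-kB drives chemokines, cytokines and survival genes. The gene lists below follow these systems and the matrix, adhesion and melanocyte lineage genes studied in melanoma.

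The libraries held 21448195 (control), 21306558 (YA) and 18089008 (OA) counts, which were divided by size factors before any ratio was formed. Of 12 melanoma markers, SOX10 had 0 counts in each library, which by counting error alone allows up to 3 counts. Whether reads of SOX10 were left unassigned in counting was not tested, so its absence from the cells cannot be read from this. The other 11 were present, with MITF at 1221, 764 and 881 counts in control, YA and OA. Their summed level was 3219, 3614 and 3451 CPM, the count scaled to a common library total. The adipocyte markers ADIPOQ, LEP and CIDEA had at most 1 count in any library, and the summed level of all 14 adipocyte markers was 114 in control, 161 in YA and 115 CPM in OA, with PPARG as the most highly counted of them. The summed level of 13 fibroblast and preadipocyte markers was 35.5, 45.1 and 32.7, that of 11 immune markers 8.35, 8.35 and 6.14, that of 6 endothelial markers 31.2, 31.0 and 43.6, and that of 6 keratinocyte markers 56.5, 52.3 and 66.7 CPM. COL3A1, PTPRC and CD3E had at most 1 count in each library, while the fibroblast marker DCN had 13, 138 and 24 counts.

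Since a group was 1 library, no difference could be set against replicate spread, and no p-value was computed. Each ratio of normalised counts was given with a 95% Clopper-Pearson interval in parentheses, which covers counting error only, and a gene was called where this interval lay wholly beyond 1.2-fold. By this rule 1444 genes were higher in YA (10% of those tested) and 1301 were higher in OA (9.03%). Counts of called members in the lists below are to be read beside these shares. At least 2-fold by the value itself, 658 genes (4.57%) were higher in YA and 456 (3.16%) were higher in OA. The median log2 ratio of YA over OA was -0.01, and the 5th and 95th percentiles of genes lay at -0.74 and 0.93. The upper bound of an interval was 1.3 times its lower bound for the median gene. Genes higher in YA had a median transcript length of 4015 nt and a GC content of 50.1%, those higher in OA 3548 nt and 47.3%, and all genes tested 3509 nt and 47.9%.

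**Figure D1:**
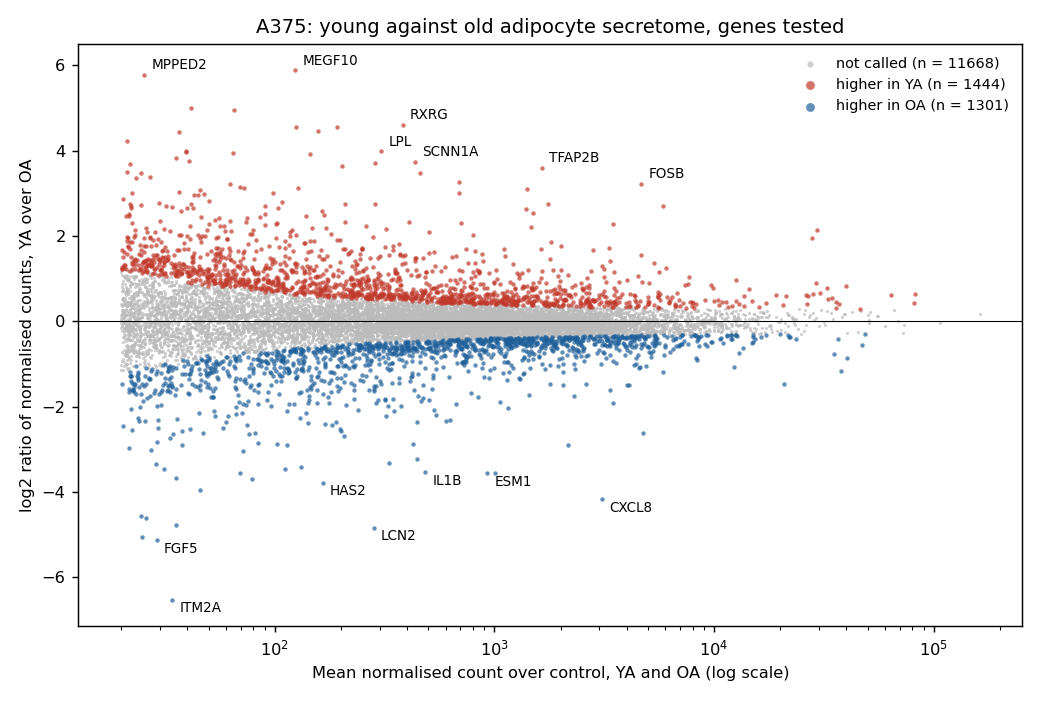
Each point is 1 of the 14413 genes tested, with its mean normalised count over the 3 libraries on a log axis and its log2 ratio of YA over OA on the vertical axis. The 1444 genes called higher in YA lie above the grey field and the 1301 called higher in OA below it, and genes with few counts need a larger ratio to be called.

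The control library was closer to YA than to OA for most called genes in both directions. Of the 1444 genes higher in YA, control lay nearer to YA for 928 (64.3%), between both libraries for 835 (57.8%), above both for 413 and below both for 196. Of the 1301 genes higher in OA, control lay nearer to YA for 929 (71.4%), between both for 919 (70.6%), below both for 332 and above both for 50. Positions relative to control therefore ranged from genes where OA alone stood away to genes where YA alone did, and the main genes below are given with their counts in all 3 libraries.

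The promoters shown next hold the motif of the factor that matches their list, which is NF-kB for the chemokine and NF-kB lists, SREBP for the sterol list and ATF4 for the ATF4 list. For each motif they are at most 2 called genes, those with the largest ratios among the called genes that hold it. They are RefSeq sequences of build GRCh38.p14, from 250 bases before to 50 after the gene's start, written 5′ to 3′ on the gene's strand with the motif in capitals. The motifs searched on both strands were GGANTTTCC for NF-kB, TCACNCCAC for the sterol response element and TGATGNAA for the C/EBP-ATF response element, which ATF4 binds with a C/EBP partner. In CHAC1 the motif stands as its reverse complement.
CXCL8 (chr4:73740319-73740618, plus strand): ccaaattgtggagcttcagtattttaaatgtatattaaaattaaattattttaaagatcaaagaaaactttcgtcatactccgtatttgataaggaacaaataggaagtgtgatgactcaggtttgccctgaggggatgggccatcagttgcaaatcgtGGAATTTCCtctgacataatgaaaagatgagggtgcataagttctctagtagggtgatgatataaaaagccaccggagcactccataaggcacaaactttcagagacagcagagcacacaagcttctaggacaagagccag
TNFRSF9 (chr1:7940790-7941089, minus strand): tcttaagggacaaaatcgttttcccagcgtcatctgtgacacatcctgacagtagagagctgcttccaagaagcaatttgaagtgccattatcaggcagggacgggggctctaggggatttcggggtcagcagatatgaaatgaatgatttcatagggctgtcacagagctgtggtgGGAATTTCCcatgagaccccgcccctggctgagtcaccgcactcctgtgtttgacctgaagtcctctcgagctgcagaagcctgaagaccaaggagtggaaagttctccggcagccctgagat
SREBF2 (chr22:41832855-41833154, plus strand): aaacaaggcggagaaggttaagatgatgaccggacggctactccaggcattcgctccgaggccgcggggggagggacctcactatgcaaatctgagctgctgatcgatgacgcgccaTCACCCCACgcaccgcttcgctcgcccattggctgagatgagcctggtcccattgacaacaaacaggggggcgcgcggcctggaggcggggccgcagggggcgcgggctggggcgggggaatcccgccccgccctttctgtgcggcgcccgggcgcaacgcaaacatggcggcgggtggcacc
CHAC1 (chr15:40953221-40953520, plus strand): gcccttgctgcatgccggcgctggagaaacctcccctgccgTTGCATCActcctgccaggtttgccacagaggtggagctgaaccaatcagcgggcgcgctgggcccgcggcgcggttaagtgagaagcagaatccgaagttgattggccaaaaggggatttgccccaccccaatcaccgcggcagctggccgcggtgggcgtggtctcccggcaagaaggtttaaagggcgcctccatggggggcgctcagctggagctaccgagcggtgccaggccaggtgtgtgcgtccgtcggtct
ASNS (chr7:97872359-97872658, minus strand): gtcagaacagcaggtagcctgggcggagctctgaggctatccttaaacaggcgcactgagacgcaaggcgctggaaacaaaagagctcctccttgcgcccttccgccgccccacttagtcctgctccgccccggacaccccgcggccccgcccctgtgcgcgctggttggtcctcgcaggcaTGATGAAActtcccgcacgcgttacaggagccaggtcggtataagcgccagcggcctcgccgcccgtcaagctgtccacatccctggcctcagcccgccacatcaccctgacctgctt

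The NF-kB motif was present in 12 of the 49 promoters found for 61 tested members of the chemokine, NF-kB, other NF-kB-responsive and acute-phase lists (24.5%), against 449 of all 27305 promoters in the table (1.64%). Among the holders were CXCL1, CXCL2, CXCL3, CXCL8, ICAM1, NFKB1, NFKBIA, NFKBIZ, REL, TNFAIP3 and TNFRSF9. Of the 12 holders 7 were called, beside 30 of all 49 genes with a promoter, so holders were not called more often than the rest. Known NF-kB targets were put into these lists for being such targets, so the share describes the lists and not the difference between YA and OA. The broader 10-base NF-kB consensus was in 15 of the 49 (30.6%) and in 2958 of all promoters (10.8%). The sterol motif stood in 1 of 19 promoters of the sterol list, that of SREBF2, and in 313 of all (1.15%). The C/EBP-ATF motif stood in 4 of 29 promoters of the ATF4 list (13.8%), those of ASNS, CHAC1, SLC3A2 and SLC7A1, and in 1003 of all (3.67%). Of these 4 genes 2 were called, beside 16 of the 29. Other spellings of these motifs and sites outside the window were not searched.

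Secreted inflammatory signals were higher in OA than in YA. In bulk RNA, more cells that express a gene and more RNA per cell cannot be told apart, here and below. Chemokines attract leukocytes, and of 8 tested members of 18 in the list, 5 were higher in OA and 0 in YA, with a median log2 ratio of -1.70. CXCL8 (ENSG00000169429.10, chromosome 4, 73740506 to 73743716; positions are those of GENCODE 29 on GRCh38), which attracts neutrophils, had 401, 495 and 7523 counts in control, YA and OA, respectively, and was 18.1-fold higher in OA (16.5 to 19.8). CXCL1, another neutrophil attractant, had 691, 728 and 4584 and was 7.48-fold higher in OA (6.91 to 8.1). YA lay close to control for both genes and OA lay far above. CXCL3 was 3.78-fold higher in OA (3.03 to 4.74), and CCL2, which attracts monocytes, was 3.39-fold higher in OA (2.65 to 4.37). CXCL2, read beside them after its values were seen, had 43 (control), 127 (YA) and 337 (OA) counts.

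Of 23 cytokines, 14 were tested, 10 were higher in OA and 0 in YA, with a median log2 ratio of -1.14. IL1B, an inflammasome-processed cytokine (ENSG00000125538.11, chromosome 2, 112829751 to 112836903), had 154, 109 and 1075 counts in control, YA and OA, respectively, and was 11.7-fold higher in OA (9.61 to 14.4). Its relative IL1A had 184, 201 and 865 and was 5.11-fold higher in OA (4.38 to 5.99). CSF2, a myeloid growth factor, had 21, 33 and 305 and was 10.98-fold higher in OA (7.65 to 16.2). In each of these genes OA held the highest count, and YA and control lay nearer to each other than to OA. IL6, the ligand of the gp130 receptor, had only 5 (control), 10 (YA) and 65 (OA) counts and was 7.72-fold higher in OA (3.94 to 16.9). LIF, of the same family, was the most highly counted called member with 1283, 1589 and 3067 and was 2.29-fold higher in OA (2.16 to 2.44), whereas IL24, with 2023, 1797 and 1563, was not called.

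The acute-phase, complement and neutrophil granule list had 11 tested members of 25, of which 8 were higher in OA and 0 in YA. LCN2, an iron-siderophore carrier (ENSG00000148346.11, chromosome 9, 128149071 to 128153455), had 9 (control), 29 (YA) and 721 (OA) counts and was 29.5-fold higher in OA (20.4 to 44.4). The complement regulators CD55 and CD59 were 2.75-fold (2.6 to 2.91) and 1.63-fold (1.57 to 1.7) higher in OA. PTX3 was 2.38-fold higher in OA (2.1 to 2.69). The central complement component C3 followed another order: it had 908 (control), 3778 (YA) and 4772 (OA) counts, so both secretome libraries stood above control and OA exceeded YA by 1.5-fold (1.44 to 1.57).

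The NF-kB machinery itself showed the same direction with smaller ratios. Of 19 tested subunits and feedback inhibitors, 8 were higher in OA and 1 in YA, with a median log2 ratio of -0.33. BIRC3, an inhibitor of cell death, had 130, 288 and 886 counts in control, YA and OA, respectively, and was 3.65-fold higher in OA (3.2 to 4.19). NFKBIA, the inhibitor of NF-kB that the pathway itself induces, had 376, 768 and 1379 and was 2.13-fold higher in OA (1.95 to 2.33). For both genes YA lay between control and OA. RELB and NFKB2, subunits of the non-canonical arm, were 2.65-fold (2.3 to 3.06) and 1.72-fold (1.63 to 1.81) higher in OA. TRAF1 was the member called the other way, with 835 (control), 479 (YA) and 276 (OA) counts, and was 1.46-fold higher in YA (1.26 to 1.7). Among 23 other NF-kB-responsive genes, 12 were higher in OA and 2 in YA. BCL2A1, a survival factor of the BCL2 family, had 5 (control), 2 (YA) and 60 (OA) counts, which gives a ratio of 35.6-fold (9.44 to 301). TNFRSF9, PTGS2 and IRAK2 were 14.4-fold (6.7 to 36.95), 8.61-fold (5.37 to 14.5) and 2.72-fold (2.25 to 3.32) higher in OA. The receptor CD40 was 1.92-fold higher in YA (1.4 to 2.68).

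The receptors and feedback genes of the IL-6 family were mostly not called, as were most genes tested. Of 19 tested IL-6 family receptors and STAT3 feedback genes, 3 were called, all higher in YA, and the median log2 ratio was -0.02. The shares were 15.8% higher in YA and 0.0% higher in OA, against 10% and 9.03% of all genes tested. LIFR, the LIF receptor, had 878 (control), 611 (YA) and 167 (OA) counts and was 3.08-fold higher in YA (2.59 to 3.68). IL6R was 1.4-fold higher in YA (1.21 to 1.62) and STAT3 itself, with 4047, 3855 and 2572 counts, was 1.26-fold higher in YA (1.2 to 1.33). Interferon-stimulated genes had 8 of 33 tested members higher in OA and 1 in YA, with a median of -0.27. DDX58, a sensor of viral RNA, was 2.46-fold higher in OA (1.91 to 3.19), and IFI44L was 2.87-fold higher in OA (1.76 to 4.83) from counts of 26, 24 and 58. GBP2 was 1.6-fold higher in YA (1.39 to 1.85). In the MHC class I list 2 of 18 were called, both higher in OA: B2M at 1.26-fold (1.22 to 1.29) and CD274, which encodes PD-L1, at 2.16-fold (1.54 to 3.06). This share of 11.1% was near the 9.03% of all genes tested.

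Genes of sterol synthesis were higher in YA than in OA. Of 25 tested genes of cholesterol synthesis and uptake, 20 were higher in YA and 0 in OA, with a median log2 ratio of 0.69. HMGCS1, which makes HMG-CoA (ENSG00000112972.14, chromosome 5, 43289395 to 43313512), had 3760, 3924 and 1043 counts in control, YA and OA, respectively, and was 3.17-fold higher in YA (2.96 to 3.39). DHCR7, the last enzyme of the pathway, had 3315, 3791 and 1405 and was 2.27-fold higher in YA (2.14 to 2.42). YA stayed near control in these genes and OA was lower than both. The median log2 ratio of the list was 0.04 for YA over control and -0.66 for OA over control. MSMO1 and MVD were 2.31-fold (2.08 to 2.56) and 2.23-fold (2.0 to 2.48) higher in YA. SREBF2, which encodes the factor that drives the pathway, had 6120, 6831 and 3895 and was 1.48-fold higher in YA (1.42 to 1.54). Members that were not called were PMVK, GGPS1, CYP51A1, NSDHL and STARD4. In cholesterol efflux, 8 genes were tested: ABCA1, the exporter, was 1.86-fold higher in OA (1.6 to 2.16) and LPCAT3 was 1.51-fold higher in YA (1.3 to 1.75).

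Fatty acid synthesis and desaturation had 10 of 24 genes higher in YA and 1 in OA, with a median of 0.29. ACSS2, which activates acetate, had 2080 (control), 2349 (YA) and 608 (OA) counts and was 3.25-fold higher in YA (2.97 to 3.56). SCD, the desaturase that makes oleate, had 34467, 38215 and 20232 and was 1.59-fold higher in YA (1.56 to 1.62), and FASN, the fatty acid synthase, had 34430, 44821 and 25680 and was 1.47-fold higher in YA (1.45 to 1.49). For these 2 abundant genes OA was below control and YA above it. ACSL4 was the member called higher in OA, at 1.37-fold (1.3 to 1.44). Fatty acid oxidation showed little: 1 of 33 tested genes was higher in YA, CPT1A at 1.31-fold (1.23 to 1.4), and 1 was higher in OA, ECI2 at 1.47-fold (1.27 to 1.71).

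Lipid droplet and PPAR-responsive genes had 6 of 23 higher in YA and 2 in OA. LPL, the lipoprotein lipase, had 353 (control), 583 (YA) and 30 (OA) counts and was 16.4-fold higher in YA (11.3 to 24.5), so the OA library held few of its transcripts. PLIN2, the main droplet coat protein of most cells, had 8271, 10315 and 6553 and was 1.33-fold higher in YA (1.28 to 1.37). PDK4, which restrains pyruvate use, was 2.27-fold higher in YA (2.04 to 2.54), while DGAT2, which makes triglyceride, was 2.29-fold higher in OA (1.75 to 3.02). The fatty acid importer CD36 had 1 (control), 2 (YA) and 0 (OA) counts, and FABP4 had 16 (control), 15 (YA) and 2 (OA) counts, both under the filter. LPL is also an adipocyte marker, and the summed adipocyte markers were highest in YA (161 CPM against 115 CPM in OA) with ADIPOQ and LEP at 0 counts in both libraries. Of 7 tested adipocyte markers 3 were called higher in YA and 0 in OA. Of 5 tested fibroblast and preadipocyte markers 2 were called higher in YA and 1 in OA. The part of transcripts from adipocytes or preadipocytes in these differences was not tested. Of 34 tested sphingolipid genes 2 were higher in YA (5.88%) and 4 in OA (11.8%), against 10% and 9.03% of all genes tested. SPHK1, which makes sphingosine-1-phosphate, had 147 (control), 80 (YA) and 197 (OA) counts and was 2.92-fold higher in OA (2.24 to 3.84). Its receptor S1PR1 was 2.75-fold higher in OA (1.96 to 3.9), and the ceramide synthase CERS4 was 3.33-fold higher in YA (2.37 to 4.77).

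Amino acid and ATF4 stress genes were higher in YA for 20 of 37 tested members and in OA for 0, with a median log2 ratio of 0.48. Relative to control the list's median was 0.83 in YA and 0.38 in OA. TRIB3, a pseudokinase induced by ATF4, had 1225 (control), 3258 (YA) and 992 (OA) counts and was 2.77-fold higher in YA (2.57 to 2.97). CTH, which makes cysteine, had 258, 710 and 258 and was 2.32-fold higher in YA (2.01 to 2.68), with OA and control at the same raw count. ASNS, the asparagine synthetase whose promoter is shown above, had 1008, 3881 and 2086 and was 1.57-fold higher in YA (1.48 to 1.65), and CHAC1 had 211, 630 and 233 and was 2.28-fold higher in YA (1.96 to 2.66). In ASNS both secretomes stood above control. SLC1A4 was 2.19-fold higher in YA (2.01 to 2.39) and INHBE was 4.77-fold higher in YA (2.33 to 11.02). The most highly counted member, the leucine importer SLC7A5, had 12723, 23826 and 23181 and was not called. Of 20 aminoacyl-tRNA synthetases 4 were higher in YA, all by small ratios such as 1.36-fold (1.31 to 1.42) for SARS and 1.33-fold (1.28 to 1.38) for WARS. In the unfolded protein response list 3 of 27 were higher in YA, a share of 11.1% that was near the 10% of all genes tested. They were led by PPP1R15A, a phosphatase subunit that ends the translation block, at 2.24-fold (2.15 to 2.34), while the chaperones HSP90B1 and CALR were not called.

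Glucocorticoid-responsive genes were higher in YA for 11 of 23 tested members and in OA for 2, with a median log2 ratio of 0.40. SCNN1A, a subunit of the epithelial sodium channel (ENSG00000111319.12, chromosome 12, 6346843 to 6377730), had 95, 1200 and 75 counts in control, YA and OA, respectively, and was 13.5-fold higher in YA (10.7 to 17.2). TSC22D3, which encodes the glucocorticoid-induced leucine zipper (ENSG00000157514.16, chromosome X, 107713221 to 107777342), had 71, 779 and 49 and was 13.4-fold higher in YA (10.02 to 18.3). YA stood alone in these genes, with OA and control near each other. PER1 had 582, 3339 and 610 and was 4.61-fold higher in YA (4.23 to 5.03), and FKBP5, a co-chaperone of the receptor, had 649, 2159 and 626 and was 2.9-fold higher in YA (2.66 to 3.18). The metallothionein MT2A was above control in both secretomes, with 1860, 5790 and 4507, and was not called between them. NFKBIA and MT1X were the members higher in OA.

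The 16 tested clock genes divided. PER1, just given, NFIL3 and NPAS2 were higher in YA, and 10 were higher in OA, for a median of -0.67. NFIL3 was 1.98-fold higher in YA (1.66 to 2.35) and NPAS2 was 1.3-fold higher in YA (1.25 to 1.35). PER3 had 74 (control), 27 (YA) and 104 (OA) counts and was 4.57-fold higher in OA (2.97 to 7.27). The output factor DBP was 3.02-fold higher in OA (2.35 to 3.9), the repressor BHLHE41 was 3.18-fold higher in OA (2.31 to 4.45), and NR1D2, a repressor of the positive limb, was 1.6-fold higher in OA (1.5 to 1.7).

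Immediate early genes, which signalling induces without new protein synthesis, also went both ways. Of 28 tested, 12 were higher in YA and 4 in OA. FOSB (ENSG00000125740.13, chromosome 19, 45467995 to 45475179) had 3695, 10053 and 902 counts in control, YA and OA, respectively, and was 9.38-fold higher in YA (8.77 to 10.1). KLF4 had 1490, 3552 and 445 and was 6.72-fold higher in YA (6.09 to 7.43), and ATF3, a stress-induced repressor, had 1007, 3207 and 462 and was 5.84-fold higher in YA (5.3 to 6.46). In all 3 genes YA stood above control and OA below it. NR4A2 was 3.23-fold higher in YA (2.86 to 3.67). The FOS relatives FOSL1 and FOSL2 went the other way: FOSL1 had 10048, 9388 and 16531 and was 2.09-fold higher in OA (2.04 to 2.15), and FOSL2 was 1.87-fold higher in OA (1.74 to 2.03).

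ERK output and feedback genes had 6 of 20 higher in YA and 7 in OA. SPRY4 and SPRY1, which restrain receptor signalling, had 7526, 5431 and 1544 and 463, 536 and 152 counts and were 2.96-fold (2.8 to 3.14) and 2.97-fold (2.48 to 3.58) higher in YA. DUSP4 and CCND1 were 1.42-fold (1.39 to 1.46) and 1.54-fold (1.5 to 1.58) higher in OA. Of 23 growth factor ligands 10 were higher in OA and 2 in YA, with a median of -0.66. FGF5 had 20 (control), 1 (YA) and 60 (OA) counts, a ratio of 71.3-fold (12.3 to 2861) that rests on 1 count in YA. HBEGF, a ligand of EGFR, was 4.0-fold higher in OA (3.35 to 4.8) and BDNF was 3.8-fold higher in OA (2.94 to 4.96). PDGFB was 3.74-fold higher in YA (2.67 to 5.34), and the abundant ligands TGFA and VEGFA were not called. Receptor tyrosine kinases had 5 of 22 on each side: DDR2 at 1.61-fold (1.55 to 1.68) and KDR at 2.46-fold (1.85 to 3.31) higher in YA, FGFR1 at 2.6-fold (2.38 to 2.85) and MET at 1.67-fold (1.6 to 1.73) higher in OA.

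In the IGF axis 5 of 17 genes were higher in YA and 6 in OA. IGFBP5 had 745 (control), 193 (YA) and 1904 (OA) counts, below control in YA and above it in OA, and was 11.7-fold higher in OA (10.1 to 13.7). The receptor adaptors were opposed: IRS1 had 1316, 750 and 2104 and was 3.33-fold higher in OA (3.06 to 3.63), and IRS2 had 5428, 6056 and 2436 and was 2.09-fold higher in YA (2.0 to 2.19). The PI3K, AKT, mTOR and FOXO core had 12 of 43 higher in YA and 2 in OA, with a median of 0.11. The list's median was -0.01 for YA over control and -0.10 for OA over control. DEPTOR, an inhibitor of mTOR, was 3.26-fold higher in YA (2.44 to 4.4).

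**Figure D2:**
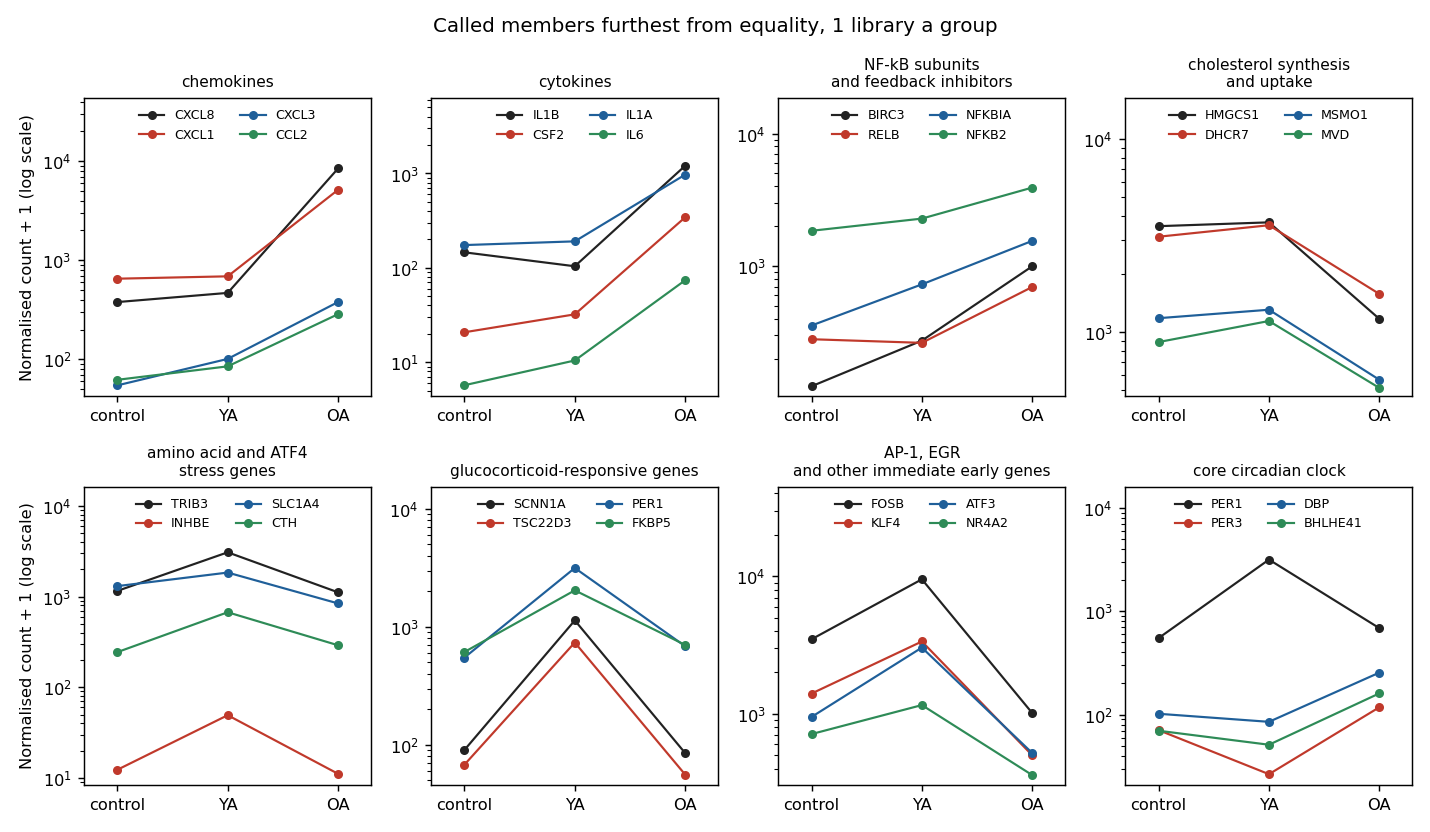
Each panel shows, for 1 gene list, the normalised count plus 1 on a log axis in control, YA and OA for the 4 called members whose interval lay furthest from 1, with 1 library a group and no error bars. Chemokines, cytokines and NF-kB genes are highest in OA, sterol genes are lowest in OA, and the glucocorticoid-responsive and ATF4 genes are highest in YA.

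The TGF-beta and BMP response was higher in OA for 15 of 33 tested genes and in YA for 3, with a median of -0.29, which was -0.54 among members with a mean of at least 100. PMEPA1, a feedback inhibitor of TGF-beta, had 918, 1452 and 4135 and was 3.38-fold higher in OA (3.19 to 3.59), and BMP2 was 3.61-fold higher in OA (3.02 to 4.32). ID4 and TGFB2 were 5.33-fold (2.88 to 10.8) and 3.0-fold (1.91 to 4.88) higher in YA. WNT genes had 7 of 15 higher in OA and 1 in YA. DKK1, a WNT inhibitor, was 2.05-fold higher in OA (1.85 to 2.27) and WNT5A, a non-canonical ligand, was 1.66-fold higher in OA (1.53 to 1.79), whereas LEF1 was 1.35-fold higher in YA (1.23 to 1.49). Among 19 Notch genes 3 were higher on each side. HES1, a target of Notch, had 1593 (control), 2446 (YA) and 333 (OA) counts and was 6.18-fold higher in YA (5.51 to 6.96), while the ligand JAG1 and the receptor NOTCH2 were 2.23-fold (2.02 to 2.46) and 1.86-fold (1.81 to 1.92) higher in OA.

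Matrix-degrading enzymes and their inhibitors had 6 of 15 higher in OA and 1 in YA. MMP9, a gelatinase, had 1 (control), 3 (YA) and 92 (OA) counts, a ratio of 36.4-fold (12.1 to 179.8). MMP14 and MMP2 were 1.59-fold (1.52 to 1.66) and 1.46-fold (1.41 to 1.52) higher in OA, and MMP19 was 2.47-fold higher in YA (1.96 to 3.14). TIMP3, an inhibitor of these enzymes and one of the most abundant transcripts, had 44773, 23326 and 43920 and was 2.24-fold higher in OA (2.2 to 2.27). Here YA was the library that stood away from control. Of 13 plasminogen activators and serpins, 4 were higher in OA and 1 in YA. PLAUR and PLAT were 1.92-fold (1.77 to 2.1) and 1.64-fold (1.58 to 1.7) higher in OA, SERPINF1 was 1.56-fold higher in YA (1.31 to 1.86), and SERPINE2, with 137330, 100271 and 86121, was not called.

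Collagens had 8 of 25 higher in YA and 4 in OA. COL5A3 had 296 (control), 319 (YA) and 39 (OA) counts and was 6.89-fold higher in YA (4.93 to 9.87), and COL6A3 had 145 (control), 302 (YA) and 886 (OA) counts and was 3.48-fold higher in OA (3.05 to 3.98). In the laminin, fibronectin and matricellular list 6 of 23 were higher in YA and 8 in OA. FN1, fibronectin, had 3553, 5167 and 1620 and was 2.69-fold higher in YA (2.54 to 2.84), while SPARC, TGFBI and LAMA1 were 1.69-fold (1.67 to 1.72), 2.81-fold (2.68 to 2.94) and 4.46-fold (3.41 to 5.9) higher in OA. HAS2, a hyaluronan synthase and no member of these lists, had 38 (control), 32 (YA) and 382 (OA) counts and was 14.2-fold higher in OA (9.87 to 21.02). Integrins had 3 of 20 higher in YA and 8 in OA. The alpha chains showed both: ITGA9 had 950, 460 and 34 and was 11.4-fold higher in YA (8.03 to 16.7). ITGA10 had 876, 3204 and 312 and was 8.65-fold higher in YA (7.7 to 9.74). ITGA1 and ITGA2 were 3.79-fold (3.59 to 4.01) and 2.02-fold (1.89 to 2.15) higher in OA. The 2 most abundant chains, ITGA3 and ITGA6, were 1.25-fold (1.23 to 1.28) and 1.4-fold (1.37 to 1.43) higher in OA.

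Genes of the melanocyte and neural crest lineage had 8 of 29 tested members higher in YA and 7 in OA. The list as a whole was balanced, with a median log2 ratio of 0.02, positive for 15 members and negative for 14. The 3 members with the widest ratios were far lower in OA than in the other two libraries. RXRG, a retinoid receptor that marks neural crest stem-like melanoma cells (ENSG00000143171.12, chromosome 1, 165400917 to 165445355), had 708, 487 and 16 counts in control, YA and OA, respectively, and was 25.6-fold higher in YA (15.6 to 45.2). TFAP2B, a transcription factor of the lineage (ENSG00000008196.12, chromosome 6, 50818723 to 50847613), had 3177, 1913 and 132 and was 12.2-fold higher in YA (10.2 to 14.7), and BARX1, a homeobox factor, had 232, 259 and 9 and was 24.2-fold higher in YA (12.6 to 53.6). All 3 were present in control and in YA at 232 counts or more. CSPG4, a melanoma surface proteoglycan, had 19441, 29002 and 16208 and was 1.51-fold higher in YA (1.48 to 1.54), and ERBB3 was 1.72-fold higher in YA (1.67 to 1.77). MSX1 and ID1 were 2.23-fold (1.91 to 2.6) and 1.87-fold (1.74 to 2.0) higher in OA. MITF, whose counts are given above with the melanoma markers, was also higher in OA than in YA.

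Among genes of nerve cells, ephrins, semaphorins and plexins had 10 of 44 higher in YA and 9 in OA, with UNC5C at 8.48-fold (4.89 to 15.9) and SEMA3D at 2.66-fold (2.25 to 3.15) higher in YA, and SEMA5A at 8.02-fold (4.35 to 16.2) and NRP2 at 3.04-fold (2.88 to 3.2) higher in OA. Of 15 channels and transporters 5 were higher in YA and 2 in OA. SLC24A2, a sodium, calcium and potassium exchanger, had 357 (control), 246 (YA) and 8 (OA) counts and was 25.9-fold higher in YA (12.9 to 60.6). SLC6A20 had 95 (control), 22 (YA) and 0 (OA) counts, at least 4.61-fold higher in YA by the lower bound of its interval and 6.17-fold against a floor of 3 counts for OA. Clustered protocadherins, adhesion molecules that give neurons their identity, had 15 of 44 higher in YA and 1 in OA, with a median of 0.62. PCDHGB5 had 163 (control), 171 (YA) and 33 (OA) counts and was 4.36-fold higher in YA (2.99 to 6.54). Genes of the alpha and gamma clusters overlap and share exons, so how their reads were divided is uncertain. HOX genes had 3 of 29 called, all in the HOXB cluster and higher in YA, with HOXB9 at 1.99-fold (1.78 to 2.23). This share of 10.3% was near the 10% of all genes tested.

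Heat shock proteins and co-chaperones were higher in OA for 18 of 23 tested genes and in YA for 0, with a median of -0.56, which was -0.13 for YA over control and 0.32 for OA over control. HSP90AA1, the inducible HSP90, had 36995, 32245 and 49233 counts in control, YA and OA, respectively, and was 1.81-fold higher in OA (1.79 to 1.84). HSPA8, the constitutive HSP70, had 53004, 39121 and 48555 and was 1.47-fold higher in OA (1.45 to 1.49). HSPA1A and HSPA1B, near-identical copies whose reads can be exchanged, were 1.77-fold (1.59 to 1.97) and 1.94-fold (1.74 to 2.16) higher in OA. YA was below control in HSPA8 and HSPA1A, and OA was above control in HSP90AA1. HSPE1 was 2.3-fold higher in OA (1.69 to 3.16), and HSP90AB1 was not called. In the NRF2 list 8 of 27 were higher in OA and 2 in YA: HMOX1, which degrades heme, was 2.28-fold higher in OA (1.81 to 2.88) and the reductase AKR1C2 was 3.05-fold higher in OA (2.54 to 3.69), but NQO1 was 1.32-fold higher in YA (1.27 to 1.37). The AKR1C genes are near copies of one another. The zinc exporter SLC30A1 was 2.11-fold higher in OA (1.88 to 2.36), 1 of 2 members called higher in OA of the 4 tested in the metallothionein list.

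All 13 mitochondrially encoded mRNAs were higher in YA, with a median of 0.61, and their median was 0.70 for YA over control and 0.09 for OA over control. MT-CYB had 26837, 42636 and 19279 and was 1.86-fold higher in YA (1.83 to 1.89), MT-CO1 had 72680, 114024 and 61686 and was 1.56-fold higher in YA (1.54 to 1.57), and MT-ND4 was 1.55-fold higher in YA (1.53 to 1.56). They are cut from shared transcripts and so are not 13 separate observations. The nuclear-encoded subunits of the same complexes had 2 of 75 higher in YA and 5 in OA, with a median of -0.16. Glycolysis genes had 1 of 23 higher in YA, ALDOC at 1.75-fold (1.62 to 1.89), and 3 in OA, and GAPDH, at 68936, 74079 and 62552 counts, differed by less than counting error. Hypoxia-response genes had 4 of 21 higher in YA and 5 in OA, with DDIT4 at 1.99-fold (1.82 to 2.17) higher in YA and ERO1A at 1.43-fold (1.34 to 1.53) higher in OA. Of 78 ribosomal protein genes 3 were higher in YA and 1 in OA, with a median of 0.11.

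Cell cycle genes were called higher in OA more often than all genes tested, although most of them were not called. Of 52 DNA replication and G1/S genes 11 were higher in OA (21.2%) and 1 in YA (1.92%), with a median of -0.27. Of 48 mitosis genes 11 were higher in OA (22.9%) and 0 in YA, with a median of -0.19. Among all genes tested 9.03% were higher in OA and 10% in YA. MCM4, a helicase subunit, was 1.49-fold higher in OA (1.44 to 1.54), CDC20 was 1.48-fold higher in OA (1.42 to 1.53) and ANLN was 1.44-fold higher in OA (1.39 to 1.49). CDK6 was 1.39-fold higher in YA (1.35 to 1.43), and MKI67 and CENPF, the most highly counted mitotic genes, were not called, with log2 ratios of 0.07 and 0.03. In the BCL2 family, 3 of 18 were higher in YA and 2 in OA. MCL1 and BCL2L1, which protect from cell death, were 1.4-fold (1.36 to 1.43) and 1.54-fold (1.42 to 1.67) higher in YA, BMF, which promotes it, was 2.42-fold higher in YA (1.62 to 3.72), and BCL2, with 308, 288 and 260, was not called. Of 26 p53 targets 5 were higher in YA, with SESN2 at 1.8-fold (1.61 to 2.02) and PHLDA3 at 1.54-fold (1.45 to 1.63), and 3 in OA, with CDKN1A at 1.48-fold (1.41 to 1.54).

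**Figure D3:**
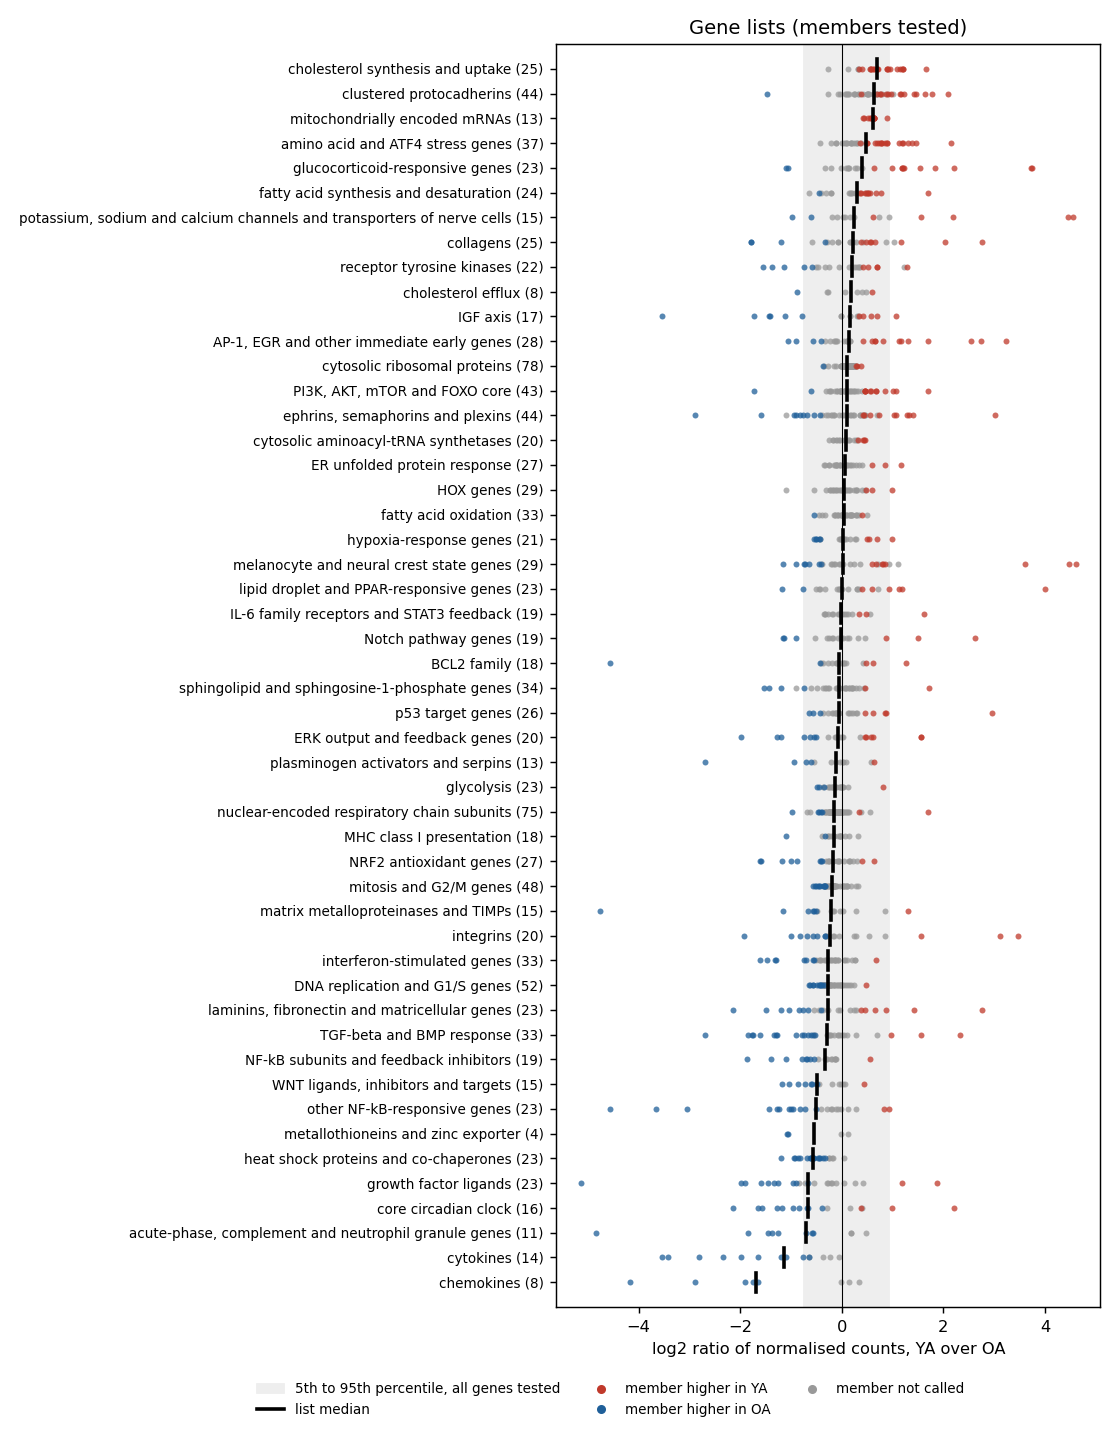
Each row is 1 of 50 gene lists with the number of members tested, sorted by its median log2 ratio of YA over OA (black tick), and each point is a member, coloured by its call. The grey band runs from the 5th to the 95th percentile of all genes tested, -0.74 to 0.93. Chemokines (-1.70) and cytokines (-1.14) have medians outside that band, and the highest median is that of cholesterol synthesis and uptake (0.69).

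The genes with the intervals furthest from 1 belonged to no single one of these groups. MEGF10, a phagocytic receptor (ENSG00000145794.16, chromosome 5, 127290831 to 127465737), had 191 (control), 201 (YA) and 2 (OA) counts, a ratio of 84.6-fold (23.1 to 704) that rests on 2 counts in OA. MPPED2 had 24, 57 and 0 counts, at least 12.6-fold higher in YA by the lower bound of its interval and 16.0-fold against a floor of 3 counts. ST8SIA5 had 99, 33 and 0 counts, at least 7.12-fold higher in YA by that bound and 9.26-fold against the floor. ABCA6, FREM1 and TMEM178B were likewise present in control and nearly absent from OA, with 99, 106 and 2, 230, 162 and 5 and 291, 159 and 8 counts. The matrix protein ITIH5 had 520 (control), 115 (YA) and 7 (OA) counts and was lower than control in both. On the OA side ITM2A had 12, 0 and 81 counts, at least 25.5-fold higher in OA by the lower bound of its interval and 32.1-fold against the floor of 3 counts. ESM1, a secreted proteoglycan, had 635 (control), 180 (YA) and 1800 (OA) counts and was 11.9-fold higher in OA (10.2 to 13.9). GAP43, a growth cone protein, the secretory regulator RAB3B and the netrin receptor DCC were 13.7-fold (8.19 to 24.4), 10.2-fold (8.04 to 13) and 11.4-fold (7.54 to 17.97) higher in OA. The long non-coding RNA UCA1 had 197, 117 and 922 and was 9.36-fold higher in OA (7.71 to 11.4).

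Of 457 lincRNA genes 68 (14.9%) were higher in YA and 26 (5.69%) in OA, and of 414 antisense genes 42 (10.1%) and 15 (3.62%). Both kinds had low counts, and among all genes with a mean of 20 to 100, these kinds included, the shares were 13.9% and 8.03%. The lincRNA share in YA was thus near that of genes at this level, and the share in OA was lower. With transcript length and GC corrected for, 78 lincRNA genes (17.1%) were higher in YA and 24 (5.25%) in OA. For antisense genes these were 55 (13.3%) and 11 (2.66%). Corrected shares for all genes with a mean of 20 to 100 were not formed, so these corrected shares cannot be set beside that level. MALAT1, a nuclear lincRNA, had 2366 (control), 5586 (YA) and 2883 (OA) counts and was 1.63-fold higher in YA (1.56 to 1.71), and LINC01419 had 2594, 2953 and 730 and was 3.41-fold higher in YA (3.14 to 3.7). Of the processed pseudogenes, 86 of 562 (15.3%) were higher in OA and 8 (1.42%) in YA. When transcript length and GC were corrected for, these became 53 (9.43%) and 11 (1.96%), with a median length of 745.5 nt against 3821 nt for protein-coding genes. Reads of a processed pseudogene and its parent gene cannot always be told apart, and antisense genes cannot be separated from their partners where strand was not used. Protein-coding genes had 1215 of 12435 (9.77%) higher in YA and 1155 (9.29%) in OA.

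The balance between YA and OA also differed by chromosome, a pattern looked for after the values were seen. Among 10610 protein-coding genes with a mean of at least 100, the median log2 ratio of YA over OA was -0.03. On chromosome 13 it was 0.17 over 192 genes, of which 71.9% had more in YA, and on chromosome 20 it was 0.16 over 286 genes, of which 72.4% had more in YA. On chromosome 18 it was -0.15 over 153 genes, of which 24.2% had more in YA. The OA library was the one that stood away: its median over control was -0.21 on chromosome 13, -0.14 on chromosome 20 and 0.11 on chromosome 18, against -0.05, -0.01 and -0.06 for YA over control. Correction for length and GC left medians of 0.19, 0.14 and -0.15. Among the genes of all biotypes, 57 of 274 on chromosome 13 (20.8%) and 63 of 376 on chromosome 20 (16.8%) were called higher in YA, and 44 of 215 on chromosome 18 (20.5%) higher in OA.

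When the genes of chromosome 13 were ordered by position and divided into 4 equal runs, the medians were 0.17, 0.22, 0.23 and 0.05. Those of chromosome 20 were 0.11, 0.18, 0.16 and 0.16, and with length and GC corrected for they were 0.02, 0.17, 0.14 and 0.14, so its first run was then close to the other chromosomes. The runs of chromosome 18 were -0.16, -0.16, -0.16 and -0.10. On chromosome 4, where 84 of 551 genes (15.2%) were called higher in OA, the runs differed, with 0.04, -0.08, -0.08 and -0.19, so that the last run stood lowest. The medians of the other autosomes and of the X chromosome lay between -0.08 and 0.04. The source of these shifts was not tested. Whether the 3 libraries came from the same A375 stock is not given in the sources used here, so a difference between stocks and a difference between secretomes cannot be told apart in any ratio given above, those of genes nearly absent from OA included. Without chromosomes 13, 18 and 20 and the mitochondrial genome, 1300 genes were called higher in YA and 1214 higher in OA.

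**Figure D4:**
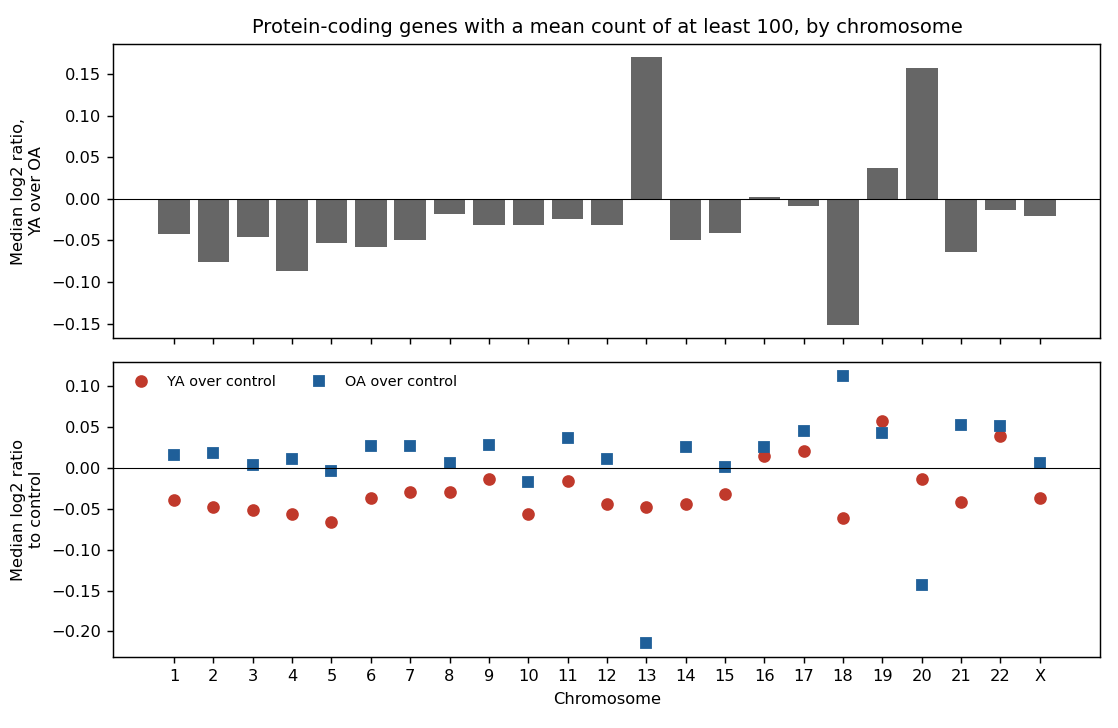
The upper panel shows the median log2 ratio of YA over OA over the protein-coding genes of each chromosome with a mean count of at least 100, as bars from 0, and the lower panel shows the medians of YA (circles) and OA (squares) over control, with the mitochondrial genome left out. Chromosomes 13 (0.17) and 20 (0.16) stand above the others and chromosome 18 (-0.15) below them, and in the lower panel OA is the library that departs.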

How the data were processed

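Gene counts of 3 A375 libraries were analysed, with 1 library per group taken from the sample titles. The authors deposited raw whole-number counts per gene. The submitters' processing notes name STAR 2.5.1b, featureCounts, R 3.6.1 and build hg38, while the annotation release and the use of strand are not given in the sources used here. Libraries were poly(A)-selected. Median-of-ratios size factors were 1.06 (control), 1.06 (YA) and 0.891 (OA), from DESeq2 1.42.0 in R 4.3.3, and edgeR 4.0.16 gave TMM factors. DESeq2 is the tool that the study's methods name, with a cutoff of 1.2, read here as a linear fold. No dispersion can be estimated from 1 library a group, so no count model was fitted. Ratios were formed from normalised counts in Python 3.11.15 with numpy 2.4.6, pandas 2.3.3 and scipy 1.17.1, and log2 ratios used a pseudocount of 1. The intervals, like the floor of 3 counts, reflect counting alone, since reads amplified without molecular identifiers do not each stand for a separate molecule. They compare 2 libraries, not 2 conditions. Positions, transcript length and GC came from GENCODE 29 on GRCh38 (14380 of 14413 genes matched), and promoters from RefSeq on GRCh38.p14. The 50 pathway lists hold 1469 genes, of which 1258 were tested and 464 called. Named genes were the 20 furthest from equality on each side, up to 4 called members a list plus up to 2 called the other way, the 2 most highly counted members, 7 genes the study addressed, and the 5 most highly counted non-coding genes called each way. The text gives the main ones, and some are not reported here. The comparison, the lists and the rule were chosen with earlier results of these data known. The alternatives were other scalings, filters, pseudocounts and call rules and a length and GC correction over a 10 by 10 grid.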

Additional observations from a re-analysis of the deposited data

How the results depend on the processing

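The 2 counts of called genes depended most on the call rule. By the value alone at 1.2-fold, 3335 genes were higher in YA and 3111 higher in OA; at 2-fold by the value these were 658 and 456, and with the interval wholly beyond 2-fold they were 238 and 206. Other scaling, filters, the length and GC correction and the removal of 3 chromosomes, the last chosen after the values were seen, kept both counts within 1.5 times. The median log2 ratio of all 50 lists stayed within the counting error of a member under TMM and total-count scaling and a pseudocount of 5. It moved beyond that error for 2 lists with the length and GC correction, for 5 at a minimum mean of 100 and for 15 with the mean in place of the median. The mean differed in sign from the median for integrins (0.15 against -0.23), receptor tyrosine kinases (-0.02 against 0.20), the IGF axis (-0.36 against 0.15), p53 targets (0.14 against -0.07), Notch genes (0.07 against -0.03), lipid droplet genes (0.26 against -0.0044) and IL-6 receptor genes (0.09 against -0.02). At a minimum mean of 100 the glucocorticoid list had a median of 0.99, the clock list -0.39, the metallothionein list -0.03, the TGF-beta and BMP list -0.54 and the ATF4 list 0.36. Of 323 named genes, 5 with a count of 0 in 1 library have no finite interval, and their log2 ratio depends on the pseudocount. With 1 library a group no library could be left out. No paired analysis was possible because each group holds 1 library.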
